A study of Mus musculus with 11 samples.

Results

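Hematopoietic stem cells (HSCs) of mice injected with pIC were compared with HSCs of mice injected with PBS, in animals that received no retinoic acid. The comparison rests on 5 of the 11 expression arrays of the study: the 2 arrays titled HSCs-pIC and the 3 titled HSCs-PBS. pIC (polyIC) is a synthetic double-stranded RNA that mimics viral RNA, and PBS is a salt solution that serves as the control injection. The other 6 arrays hold HSCs of mice given ATRA (all-trans retinoic acid) and then pIC (3 arrays) and of mice given ATRA alone (3 arrays). All 4 groups are mouse HSCs isolated by flow cytometry, and each array holds the RNA of 1 such sample. The sources used here do not state doses, times, strain, age, sorting gate or array batches, nor whether replicates came from separate mice, so p-values measure the spread between samples, which may be technical.

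In mammals pIC is bound by Toll-like receptor 3 and by the cytosolic sensors of double-stranded RNA, which switch on type I interferons, and interferons in turn act on nearly every cell through a receptor that signals to STAT factors. HSCs are mostly quiescent, and after interferon they enter the cell cycle and later return to quiescence. Genes of 3 lists that are known for this response, namely interferon response, antigen presentation, and cell cycle with DNA replication, were set aside, and the account below is of the rest of the transcriptome. Genes that interferon is known to induce but that stand in none of the 3 lists remain among the rest.

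Of 22180 genes, each read through 1 probe set, 1984 rose and 1276 fell in pIC HSCs relative to PBS HSCs (limma, Benjamini-Hochberg adjusted p below 0.05 over all genes), which is 14.7% of the genes, 8.94% higher and 5.75% lower. Below, a gene that passed this threshold is said to have risen or fallen. Differences are pIC minus PBS on the log2 scale, so 1 unit is a doubling of intensity, and ± after a difference is its standard error from the model. The 3 lists set aside hold 508 of these genes and carry a small share of the calls: 1728 of the rises (87.1%) and 1269 of the falls (99.5%) were outside them. Among the larger changes the split was different. Outside the lists 136 genes rose by more than 1 log2 unit and 227 fell by more than 1, against 254 and 228 over all genes. The interferon list held 131 rises among 181 genes, with a median difference of 1.35, and its fall was Irf2 at -0.30 ± 0.08. The antigen presentation list held 22 rises among 48 genes and 1 fall, the steroid dehydrogenase gene H2-Ke6 at -0.57. The cell-cycle list held 103 rises among 280 genes and 5 falls, in H4c14, Cdkn1c, Kif21a, Ccnd1 and Rbl2. In bulk samples such as these, fewer cells of a type and less RNA per cell cannot be told apart.

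Most calls were of moderate size. The median rise was 0.53 log2 units and the median fall -0.63, and 863 rises and 405 falls were smaller than 0.5. Calls were concentrated among bright probe sets: among 5 groups of 4436 genes ordered by level, 22.5% rose and 9.54% fell in the brightest group, and 0.721% and 0.812% in the dimmest. The direction split depended on the scaling of the arrays, with 60.9% of calls being rises in the deposited values, 48.8% after cyclic loess scaling (2970 calls) and 71.6% with array medians equalised (3482 calls). Loess scaling called 6.53% of genes higher and 6.86% lower, and equal medians 11.2% and 4.45%. The median difference of all genes was 0.00 in the deposited values and 0.05 with array medians equalised. For 13646 genes (61.5%) the 95% interval of the difference lay within ±0.5 log2 units, and for 20465 (92.3%) within ±1. Another 5384 genes did not pass and had an interval reaching beyond ±0.5.

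With 2 pIC arrays the number of calls depended on each of them. Without pIC replicate 1 there were 556 rises (2.51% of genes) and 407 falls (1.83%), and without pIC replicate 2 there were 392 rises (1.77%) and 272 falls (1.23%), fits in which the remaining pIC array is assumed to vary like the other groups. Leaving out PBS replicate 1 gave 1257 rises (5.67%) and 826 falls (3.72%), PBS replicate 2 gave 1226 (5.53%) and 733 (3.3%), and PBS replicate 3 gave 1578 (7.11%) and 969 (4.37%). Leaving out ATRA+pIC replicate 2, an array of another group that enters the estimate of spread, gave 10.8% higher and 7.52% lower. The pIC arrays lay 0.211 log2 units apart (SD of the gap over all genes), and pairs of PBS arrays 0.222 to 0.267. A total of 187 rises and 178 falls outside the set-aside lists passed without each of the 11 arrays in turn, and most genes described with their values below are among them. On ATRA+pIC replicate 2 the median interferon-list gene stood 0.50 log2 units above its PBS mean, against 1.47 and 1.07 on the other ATRA+pIC arrays, and the median HSC marker stood at -0.08, against -0.50 and -0.45. The plot of differences by level shows genes from within and from outside the set-aside lists among the larger rises.

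**Figure D1:**
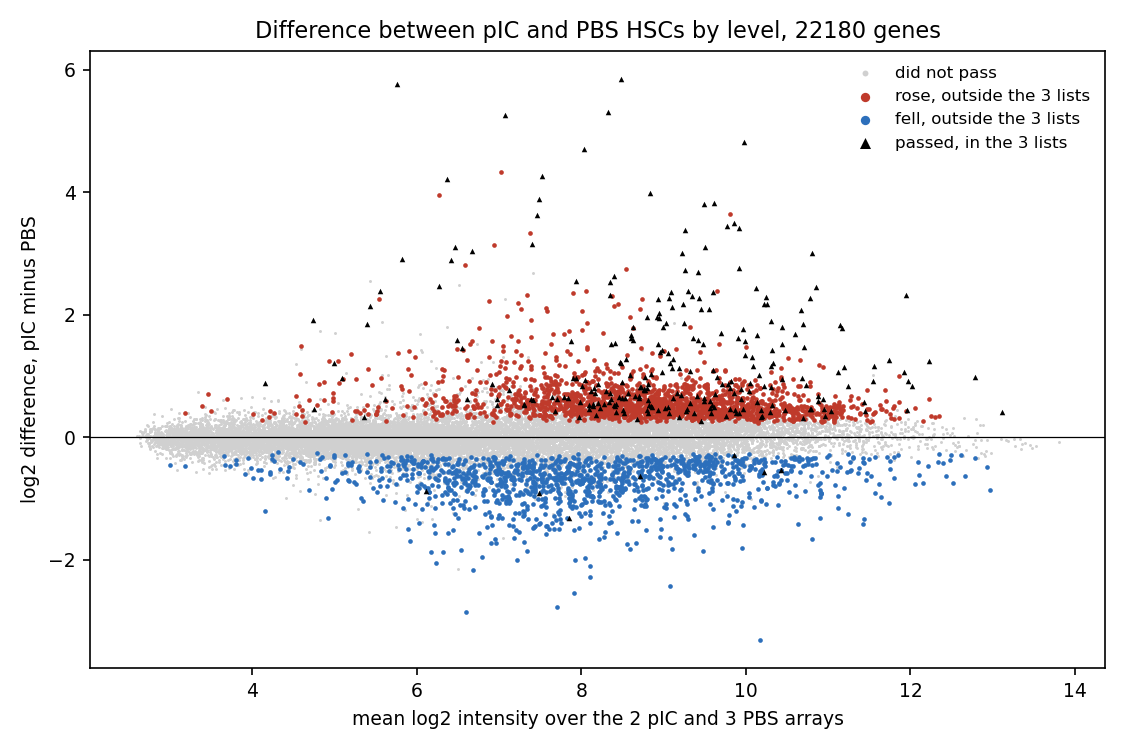
The log2 difference, pIC minus PBS, of each of 22180 genes (vertical axis) is plotted against its mean log2 intensity over the 2 pIC and 3 PBS arrays (horizontal axis). Red and blue points are the 1728 rises and 1269 falls outside the interferon, antigen presentation and cell-cycle lists, black triangles are genes of those lists that passed, and grey points did not pass.

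The 25 largest rises and the 25 largest falls outside the lists were taken from called genes whose pIC and PBS arrays do not overlap, a pattern that 23.4% of all genes show with pIC above and 19.6% with pIC below, so nothing is read from the separation. Predicted genes and small RNA genes were left out of both, which passed over 9 rises, led by Gm5431 (3.14), and 4 falls, led by Mir28c (-2.29), that were larger than the last gene taken. The largest rise taken was of Mpeg1, which encodes a pore-forming protein of phagocytes. Mpeg1 read 9.78 and 9.48 (log2 intensity) on the 2 pIC arrays, against 5.36, 5.18 and 5.34 on the 3 PBS arrays, a 20.2-fold rise (4.34 ± 0.67, limma, adjusted p = 0.00363) that passed without each of the 11 arrays in turn.

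The 25 rises included genes of secreted proteins of immune defence. Il18bp, which encodes a secreted protein that neutralises interleukin 18, read 11.01 and 11.14 on the pIC arrays, against 8.91, 8.60 and 8.56 on the PBS arrays. The difference was 2.38 ± 0.35, a 5.22-fold rise (limma, adjusted p = 0.00315). C4b, a complement component, read 7.94 and 7.71 on the pIC arrays, against 6.12, 6.11 and 5.92 on the PBS arrays, a rise of 1.78 ± 0.20 (adjusted p = 0.00114). Both genes passed without each of the 11 arrays in turn. Complement factor B (Cfb) read 9.36 and 9.38 on the pIC arrays, against 6.18, 5.93 and 6.01 on the PBS arrays (3.33 ± 0.81, adjusted p = 0.0212). The C1 inhibitor gene Serping1 differed by 2.20 ± 0.50 (adjusted p = 0.0163). Neither Cfb nor Serping1 passed without pIC replicate 1 (0.105 and 0.1), pIC replicate 2 (0.118 and 0.0885) or PBS replicate 2 (0.0599 and 0.0533), nor Cfb without PBS replicate 1 (0.052). Of 40 complement and coagulation genes 6 rose (15%) and 5 fell (12.5%), where 8.94% and 5.75% of all genes did. Among its 14 members in the brightest 2 of the 5 level groups 21.4% rose and 35.7% fell. Of all genes there 19.3% rose and 9.61% fell, so the share of rises was near that of bright genes. The other rises of the family were F2r, F2rl2 and F10, and its falls were Cd46, Vwf, Procr, Plaur and Tfpi. The complement rises numbered 3 without PBS replicate 1 and 1 without either pIC array, and the falls 2 without either pIC array.

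Receptor genes formed another part of the largest rises. Csf2rb2 encodes the beta chain that mouse interleukin 3 receptors use, and Csf2rb encodes the chain shared by the receptors of interleukin 3, interleukin 5 and GM-CSF. Csf2rb2 read 11.98 and 12.01 on the pIC arrays, against 8.46, 8.17 and 8.41 on the PBS arrays, a 12.6-fold rise (3.65 ± 0.69, limma, adjusted p = 0.00765). Csf2rb read 9.24 and 9.25 on the pIC arrays, against 6.87, 7.51 and 7.18 on the PBS arrays, a rise of 2.06 ± 0.47 (adjusted p = 0.0173). The 2 genes are neighbours of closely related sequence, so their probe sets may share signal. Csf2rb2 had an adjusted p of 0.0564 without pIC replicate 1 and 0.0648 without pIC replicate 2, and for Csf2rb these were 0.0914 and 0.104, with 0.0552 without PBS replicate 1. Ffar2, a receptor for short-chain fatty acids, read 8.26 and 8.16 on the pIC arrays, against 5.97, 5.67 and 6.32 on the PBS arrays, a 4.68-fold rise (2.23 ± 0.33, adjusted p = 0.0033). Sdc3, a cell-surface heparan sulphate proteoglycan, read 10.12 and 9.82 on the pIC arrays, against 7.75, 7.88 and 7.98 on the PBS arrays (2.10 ± 0.34, adjusted p = 0.004). Ffar2 and Sdc3 passed without each array in turn.

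Other large rises fell in no single class. Ltbp1, which encodes a matrix protein that holds latent TGF-beta, read 8.54 and 8.51 on the pIC arrays, against 6.6, 6.37 and 6.32 on the PBS arrays (2.10 ± 0.43, limma, adjusted p = 0.0111). The lipocalin gene Apod read 8.45 and 8.11 on the pIC arrays, against 5.48, 4.83 and 6.08 on the PBS arrays (2.82 ± 0.64, adjusted p = 0.0165). The sodium pump subunit gene Atp1b2 differed by 1.87 ± 0.42, Clca3a1 of the chloride channel accessory family by 1.78 ± 0.34, and the scramblase gene Plscr2 by 1.98 ± 0.31. Only Plscr2 of these 5 passed without each array. Without pIC replicate 1 the adjusted p was 0.0709 for Ltbp1, 0.104 for Apod, 0.081 for Atp1b2 and 0.0515 for Clca3a1, and without pIC replicate 2 it was 0.0776, 0.086, 0.103 and 0.0727 in the same order. Apod (0.0561) and Atp1b2 (0.0508) were also lost without PBS replicate 2.

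Cd69, Lag3 and Tespa1, which are best known from lymphocytes, were among the 25 as well. Lag3, an inhibitory receptor that binds MHC class II, read 8.90 and 8.88 on the pIC arrays, against 7.11, 7.11 and 7.23 on the PBS arrays (1.74 ± 0.35, limma, adjusted p = 0.00996). The activation antigen gene Cd69 read 10.32 and 10.48 on the pIC arrays, against 8.36, 8.38 and 9.06 on the PBS arrays (1.80 ± 0.44, adjusted p = 0.0211). Tespa1, which acts in T-cell receptor signalling, differed by 1.92 ± 0.35 (adjusted p = 0.00684). Lag3 was lost without either pIC array (0.0658 and 0.073), Tespa1 without pIC replicate 1 (0.064), and Cd69 without PBS replicate 1, PBS replicate 2 or either pIC array (0.0643 to 0.129). The T and NK cell markers were read beside these 3 genes. The mean level of the 20 measured markers was 6.891 and 7.341 on the pIC arrays, against 5.994, 5.928 and 6.106 on the PBS arrays, so all pIC values were above all PBS values. Gzmb, which encodes the cytotoxic protease granzyme B, read 8.35 and 8.92 on the pIC arrays, against 5.03, 4.49 and 4.53 on the PBS arrays (3.95 ± 1.05, adjusted p = 0.0298), and was lost without any 1 of these 5 arrays (0.062 to 0.169). Of the 20 markers 3 passed, namely Ccl5, Gzmb and Nkg7, while 1 passed without pIC replicate 1 and 0 without pIC replicate 2 (limma), and leaving out ATRA+pIC replicate 2 gave 11. The T-cell receptor complex genes were chosen for naming after their values were seen. Cd3g read 7.48 and 8.54 on the pIC arrays, against 5.0, 5.30 and 6.27 on the PBS arrays, and did not pass (2.48 ± 1.02, adjusted p = 0.138). Cd3d (adjusted p = 0.109) and Cd3e (adjusted p = 0.146) did not pass either, with differences of 1.52 and 1.31. The part of such cells in the rises of Cd69, Lag3 and Tespa1 was not tested.

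The 2 largest of the 25 falls were of transcription factor genes. Nr4a1, an orphan nuclear receptor of the immediate early class, read 8.15 and 8.21 on the pIC arrays, against 11.64, 11.66 and 11.17 on the PBS arrays, a 9.92-fold fall (-3.31 ± 0.37, limma, adjusted p = 0.00104). Klf12, a Krueppel-like repressor, read 5.0 and 4.77 on the pIC arrays, against 7.5, 8.17 and 7.56 on the PBS arrays, a 7.24-fold fall (-2.86 ± 0.21, adjusted p = 0.00019). Plk2, a polo-like kinase induced by mitogens and by stress, read 5.88 and 6.18 on the pIC arrays, against 8.61, 9.12 and 8.70 on the PBS arrays. It fell by 2.78 on the log2 scale (SE 0.30), a 6.87-fold change (adjusted p = 0.000921). Nr4a2, a relative of Nr4a1, read 7.79 and 7.45 on the pIC arrays, against 10.11, 10.18 and 9.86 on the PBS arrays (-2.43 ± 0.30, adjusted p = 0.00161). The salt-inducible kinase gene Sik1, a target of cAMP signalling, read 9.80 and 9.81 on the pIC arrays, against 11.46, 11.63 and 11.32 on the PBS arrays (-1.67 ± 0.15, adjusted p = 0.000565). The immediate early factor gene Egr1 read 8.04 and 7.97 on the pIC arrays, against 9.86, 10.01 and 9.62 on the PBS arrays (-1.82 ± 0.21, adjusted p = 0.00117). Each of these 6 genes passed without any 1 of the 11 arrays.

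Genes of vesicle traffic, lipids and lysosomes were also among the 25 largest falls. Hid1, which encodes a Golgi protein of dense-core vesicle formation, read 6.26 and 6.51 on the pIC arrays, against 8.94, 9.13 and 8.72 on the PBS arrays, a 5.85-fold fall (-2.55 ± 0.34, limma, adjusted p = 0.00207). The lysosomal protease gene Ctsf read 6.35 and 6.10 on the pIC arrays, against 8.14, 8.17 and 7.93 on the PBS arrays (-1.85 ± 0.18, adjusted p = 0.000666). B4galt6, a lactosylceramide synthase, read 7.64 and 7.39 on the pIC arrays, against 9.23, 9.55 and 8.99 on the PBS arrays (-1.74 ± 0.28, adjusted p = 0.00381). All 3 kept their calls without each array. The Rab27 effector gene Sytl5 differed by -1.84 ± 0.29 and the endocytic scaffold gene Itsn1 by -1.73 ± 0.31, and without pIC replicate 2 their adjusted p was 0.0505 and 0.0707. Bdh2, a dehydrogenase linked to iron handling, differed by -2.01 ± 0.43, Pygm, a glycogen phosphorylase, by -1.82 ± 0.34, and the transporter gene Abcg3 by -1.97 ± 0.41. These last 3 were lost without either pIC array (adjusted p from 0.054 to 0.0965).

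Other regulators were among the 25 too. Prex2, an exchange factor that activates Rac, read 5.56 and 5.22 on the pIC arrays, against 7.62, 7.74 and 7.30 on the PBS arrays (-2.17 ± 0.30, limma, adjusted p = 0.00244). Eya2, a phosphatase and transcriptional coactivator, read 8.43 and 8.29 on the pIC arrays, against 10.23, 10.19 and 10.23 on the PBS arrays (-1.85 ± 0.29, adjusted p = 0.00358). The homeobox gene Hoxa2 read 6.20 and 6.34 on the pIC arrays, against 8.14, 8.07 and 7.75 on the PBS arrays (-1.72 ± 0.29, adjusted p = 0.00503). Nrk, a germinal centre kinase family member, differed by -1.95 ± 0.26, Mamdc2, a MAM-domain glycoprotein gene, by -2.11 ± 0.30, and Fam171b by -1.72 ± 0.29. All 6 genes passed without each array. Hlf, a PAR bZIP factor that marks HSCs, read 9.02 and 8.73 on the pIC arrays, against 10.68, 10.78 and 10.58 on the PBS arrays, and was lost without pIC replicate 2 (adjusted p = 0.0727). Fgd5, an exchange factor gene that marks HSCs, differed by -1.66 ± 0.18 and passed without each array. The olfactory receptor genes Olfr65, Olfr631 and Olfr632 were the others of the 25.

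**Figure D2:**
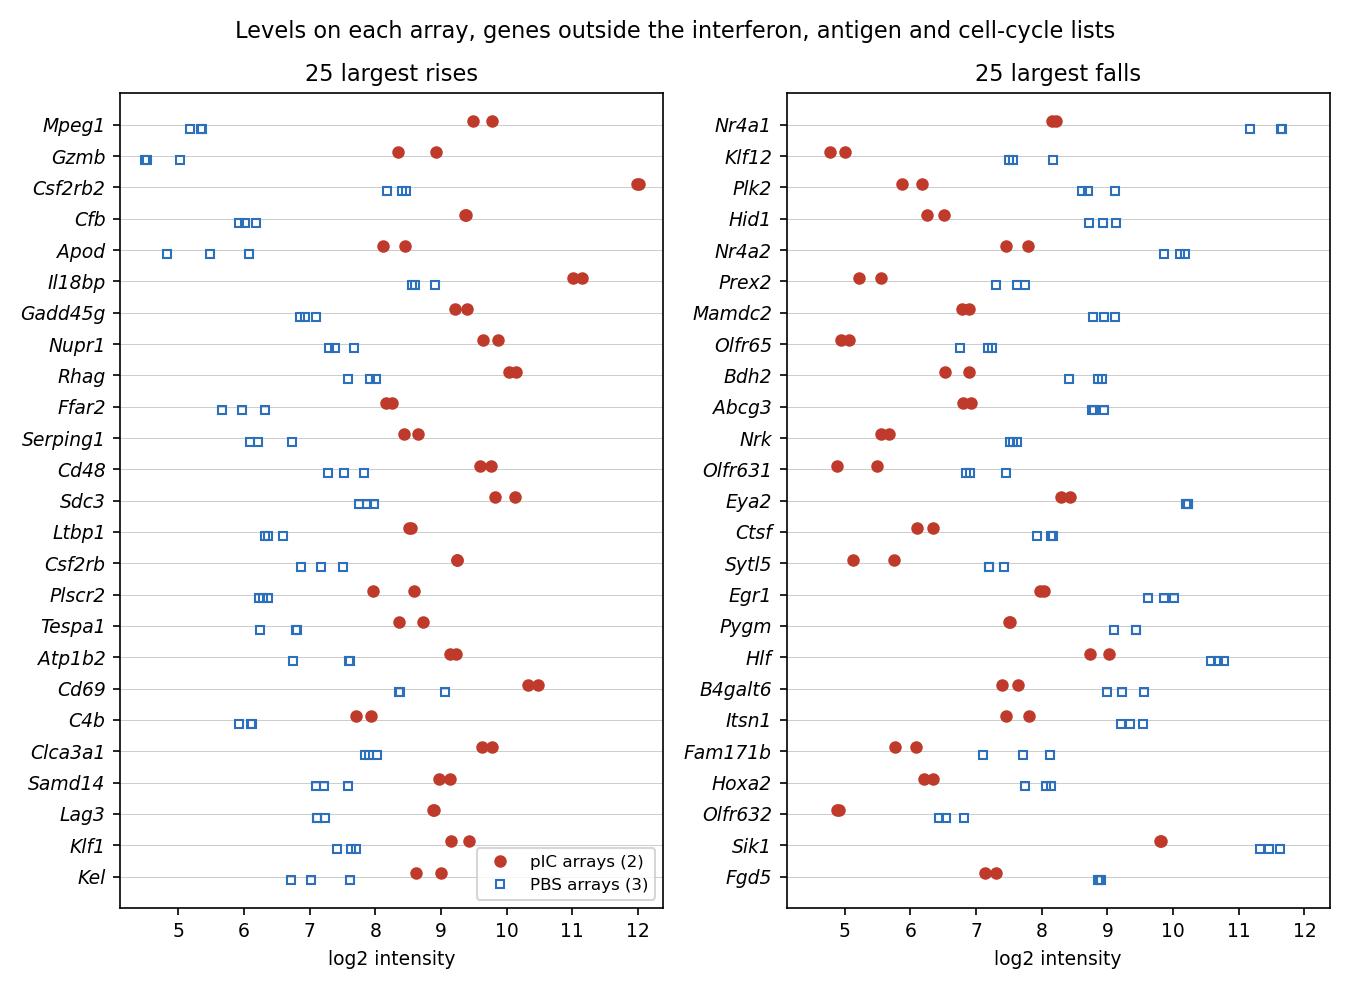
Each row is 1 gene, and points give its log2 intensity on the 2 pIC arrays (filled circles) and the 3 PBS arrays (open squares), for the 25 largest rises (left) and the 25 largest falls (right) outside the set-aside lists, with predicted genes and small RNA genes left out. In every row the 2 groups do not overlap, as the choice of these genes required.

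Promoters of Plk2 and Hlf are shown because, of the 16 largest falls with a promoter in the RefSeq table (300 bases, from 250 before the start to 50 after it, build GRCm38.p6), theirs hold the cAMP response element TGACGTCA, put in capitals.
Plk2 promoter, chr13:110394794-110395093 on the plus strand: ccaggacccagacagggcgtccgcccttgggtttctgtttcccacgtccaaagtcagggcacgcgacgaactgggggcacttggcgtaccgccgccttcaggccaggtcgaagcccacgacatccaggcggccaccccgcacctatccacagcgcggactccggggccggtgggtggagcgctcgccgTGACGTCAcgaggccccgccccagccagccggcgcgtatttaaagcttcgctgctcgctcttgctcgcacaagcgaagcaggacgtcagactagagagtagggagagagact
Hlf promoter, chr11:90390868-90391167 on the minus strand: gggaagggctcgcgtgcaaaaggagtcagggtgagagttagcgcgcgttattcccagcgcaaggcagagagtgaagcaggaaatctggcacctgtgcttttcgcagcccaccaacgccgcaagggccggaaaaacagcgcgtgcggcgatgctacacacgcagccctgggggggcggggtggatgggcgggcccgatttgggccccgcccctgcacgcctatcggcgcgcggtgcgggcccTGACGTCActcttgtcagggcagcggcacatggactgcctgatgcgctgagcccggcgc
Of all 16918 measured genes with a promoter, 2.64% hold these letters, and among the falls outside the lists the share was 2.9%. The Plk2 window also holds an interferon-stimulated response element. The motif in capitals overlapped no other motif searched, and both strands were read. These matches describe letters in a window and do not show that a factor binds there.

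Genes of amino acid supply and of protein synthesis rose far more often than they fell. Atf4 is the transcription factor that cells activate when amino acids run short or proteins misfold, and aminoacyl-tRNA synthetases load each tRNA with its amino acid. Of 28 Atf4 targets 15 rose (53.6%) and 1 fell, with a median difference of 0.58, and of 36 synthetase genes 22 rose (61.1%) and none fell, with a median of 0.45. The share of all genes that rose was 8.94%, and the median of all genes was 0.00. Among the 8872 genes of the brightest 2 of the 5 level groups, 19.3% rose. Without pIC replicate 1 there were 6 Atf4 targets and 8 synthetases that rose, and without pIC replicate 2 there were 4 and 6.

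Nupr1, a small stress-induced chromatin protein and Atf4 target, read 9.87 and 9.64 on the pIC arrays, against 7.38, 7.67 and 7.29 on the PBS arrays, a 4.96-fold rise (2.31 ± 0.38, limma, adjusted p = 0.00449). Slc7a5, the light chain of the leucine transporter, read 10.89 and 10.99 on the pIC arrays, against 9.98, 9.79 and 9.85 on the PBS arrays (1.07 ± 0.14, adjusted p = 0.00186). The lipoprotein receptor gene Vldlr rose by 0.91 ± 0.14 and Psat1, a serine synthesis enzyme, by 0.76 ± 0.11. All 4 passed without each array. Asns, asparagine synthetase, read 9.53 and 9.52 on the pIC arrays, against 8.43, 8.29 and 8.52 on the PBS arrays (1.11 ± 0.22, adjusted p = 0.00983), and Ddit3, the stress factor CHOP, differed by 1.10 ± 0.20 (adjusted p = 0.00623). Asns and Ddit3 were named after their values were seen, and without pIC replicate 1 the adjusted p of Asns was 0.0658, and without pIC replicate 2 it was 0.0719 for Asns and 0.0636 for Ddit3. The member that fell was Ppp1r15a (GADD34), the phosphatase subunit that reverses the Atf4-inducing signal. Ppp1r15a read 10.28 and 10.36 on the pIC arrays, against 11.38, 11.31 and 11.20 on the PBS arrays (-0.98 ± 0.08, adjusted p = 0.000491), and kept its call without each array. Gadd45g, a stress sensor outside the list, read 9.22 and 9.39 on the pIC arrays, against 6.86, 7.09 and 6.93 on the PBS arrays, a 5.09-fold rise (2.35 ± 0.36, adjusted p = 0.00332).

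Among the synthetases Mars1, for methionine, read 9.32 and 9.39 on the pIC arrays, against 8.33, 8.49 and 8.59 on the PBS arrays (0.89 ± 0.12, limma, adjusted p = 0.00207). Yars, for tyrosine, read 9.14 and 9.19 on the pIC arrays, against 8.42, 8.45 and 8.40 on the PBS arrays (0.74 ± 0.11, adjusted p = 0.00322). Vars, for valine, rose by 0.72 ± 0.09 and Iars, for isoleucine, by 0.69 ± 0.10. In each of these 4 genes, which passed without each array, the pIC arrays lay above every PBS array by at least 0.5 log2 units. Wars, for tryptophan, is known as interferon-inducible, had the largest difference of the list (1.14) and was named for that. Promoters of these groups are shown for the letters TGATGNAA, the core of the amino acid response element that Atf4 and its partners bind, in capitals.
Nupr1 promoter, chr7:126625421-126625720 on the minus strand: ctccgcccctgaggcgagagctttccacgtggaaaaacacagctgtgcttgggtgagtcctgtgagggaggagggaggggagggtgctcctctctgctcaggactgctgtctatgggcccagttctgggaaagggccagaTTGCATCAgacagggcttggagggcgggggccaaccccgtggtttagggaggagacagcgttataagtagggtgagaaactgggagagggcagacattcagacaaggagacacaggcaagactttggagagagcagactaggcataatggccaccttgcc
Asns promoter, chr6:7693160-7693459 on the minus strand: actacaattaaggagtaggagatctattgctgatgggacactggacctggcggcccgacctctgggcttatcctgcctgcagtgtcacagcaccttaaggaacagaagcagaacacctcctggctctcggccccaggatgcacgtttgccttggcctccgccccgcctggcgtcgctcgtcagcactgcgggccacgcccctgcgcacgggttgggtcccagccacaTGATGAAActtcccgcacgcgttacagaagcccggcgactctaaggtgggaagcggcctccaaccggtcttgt
Vldlr promoter, chr19:27216770-27217069 on the plus strand: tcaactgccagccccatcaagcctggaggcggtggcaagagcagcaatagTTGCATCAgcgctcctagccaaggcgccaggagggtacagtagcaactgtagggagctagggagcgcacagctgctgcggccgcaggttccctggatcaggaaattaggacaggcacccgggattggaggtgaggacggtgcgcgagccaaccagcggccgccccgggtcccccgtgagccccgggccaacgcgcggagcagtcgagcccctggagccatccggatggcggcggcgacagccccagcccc
Iars promoter, chr13:49681880-49682179 on the plus strand: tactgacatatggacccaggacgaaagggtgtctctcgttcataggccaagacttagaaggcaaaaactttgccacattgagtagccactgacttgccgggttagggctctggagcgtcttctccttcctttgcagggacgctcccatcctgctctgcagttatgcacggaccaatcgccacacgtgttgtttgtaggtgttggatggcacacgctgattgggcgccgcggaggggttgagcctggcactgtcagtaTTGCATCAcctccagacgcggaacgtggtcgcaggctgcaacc
Yars promoter, chr4:129189653-129189952 on the plus strand: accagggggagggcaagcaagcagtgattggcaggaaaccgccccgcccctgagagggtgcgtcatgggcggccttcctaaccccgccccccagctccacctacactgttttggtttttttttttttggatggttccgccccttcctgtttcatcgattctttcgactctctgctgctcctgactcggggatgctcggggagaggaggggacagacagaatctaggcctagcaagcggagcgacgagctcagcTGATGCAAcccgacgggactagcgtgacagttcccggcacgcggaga
Of the 12 Atf4 targets that rose and have a promoter in the table, 4 hold the letters on either strand (33.3%), namely Asns, Got1, Nupr1 and Vldlr. Of the 15 synthetases that rose and have one, 4 do (26.7%), namely Gars, Iars, Tars and Yars. The share was 3.92% of all 16918 promoters and 2.7% of the 1406 rises outside the lists. The first of these groups was chosen as Atf4 targets, and members of either group that did not rise were not counted. The shares therefore cannot tell whether the letters go with a rise, and they do not show that a factor binds. The capitals overlapped no other motif searched. For comparison, the interferon-stimulated response element stood in 42.6% of the promoters of interferon-list rises, in 4.55% of those of the other rises and in 3.88% of all promoters, and the E-box CACGTG in 14.2% of the other rises and 9.22% of all promoters.

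Enzymes of one-carbon metabolism, which feeds nucleotide synthesis, included 4 of the most stable rises. Mthfd2, a mitochondrial folate enzyme, read 8.42 and 8.66 on the pIC arrays, against 7.04, 6.95 and 7.06 on the PBS arrays, a 2.88-fold rise (1.53 ± 0.22, limma, adjusted p = 0.00285). Its cytosolic relative Mthfd1 rose by 0.84 ± 0.13, the serine hydroxymethyltransferase Shmt2 by 0.77 ± 0.12, and Psat1 as given above. In this family of serine, folate, methionine and polyamine genes 7 of 29 rose, with Ahcy, Srm and Shmt1 as the others, and Mthfd2l fell, while the family median was 0.07. Without pIC replicate 2 the rises of this family numbered 4. Of 30 nucleotide synthesis genes 13 rose and none fell, among them the purine nucleoside phosphorylase Pnp2 (0.84 ± 0.15) and the pyrimidine enzyme Cad (0.48 ± 0.08). That count was 7 after cyclic loess scaling, 6 without PBS replicate 1, 5 without PBS replicate 2, 4 without pIC replicate 1 and 2 without pIC replicate 2. Pnp2 had an adjusted p of 0.0558 without pIC replicate 1, and Cad 0.0686 without pIC replicate 2.

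Genes of transport between nucleus and cytoplasm held rises and no fall. Of 58 nuclear pore and transport genes 30 rose (51.7%) and none fell, with a median of 0.35. Xpo1, the main exporter of proteins, rose on both pIC arrays (0.57 ± 0.09, limma, adjusted p = 0.00408). The pore gene Nup43 read 9.09 and 9.07 on the pIC arrays, against 8.38, 8.46 and 8.35 on the PBS arrays (0.69 ± 0.12, adjusted p = 0.00484). Both passed without each array. The pore gene Nup93 rose by 0.79 ± 0.14, and without pIC replicate 2 its adjusted p was 0.0642. The family count was 15 after cyclic loess scaling, 18 without PBS replicate 1, 15 without PBS replicate 2, 10 without pIC replicate 1 and 2 without pIC replicate 2, and no member was called lower in these fits.

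In the secretory pathway and in mitochondrial import rises outnumbered falls as well. Of 85 genes of ER translocation, N-glycosylation and COP vesicles 33 rose (38.8%) and 1, Copz2, fell, with a median of 0.27. Alg3, a mannosyltransferase of the glycan precursor, read 11.16 and 11.12 on the pIC arrays, against 10.21, 10.10 and 10.28 on the PBS arrays (0.94 ± 0.12, limma, adjusted p = 0.00196). The glucosidase gene Mogs rose by 0.70 ± 0.11, and both passed without each array. Of 35 mitochondrial import genes 15 rose (42.9%) and none fell, with a median of 0.30. The import channel gene Tomm40 rose by 0.81 ± 0.16 and Grpel1, a cofactor of the import motor, by 0.86 ± 0.16. Tomm40 had an adjusted p of 0.0854 without pIC replicate 2 and Grpel1 0.0658 without pIC replicate 1. The secretory count was 17 after cyclic loess scaling, 18 without PBS replicate 1, 17 without PBS replicate 2, 8 without pIC replicate 1 and 3 without pIC replicate 2, and the import count was 10 after loess, 7 without PBS replicate 2 (with 1 fall) and 2 without either pIC array.

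RNA-handling families held more rises than falls. Of 67 translation factor genes 21 rose, with Eif1ad at 0.90 ± 0.13, Eif5b at 0.78 ± 0.11 and Eif2b4 at 0.72 ± 0.10. In that family 3 fell, namely the helicase gene Eif4a2 at -0.52 ± 0.09, the stress kinase gene Eif2ak3 and the pseudogene Eif1-ps3. Each of these 3 falls lost its call when 1 array or another was left out. Of 47 DEAD- and DEAH-box helicases 17 rose and 4 fell. The rise of Ddx41, a helicase of splicing and DNA sensing, was 0.85 ± 0.14 (limma, adjusted p = 0.00422). The fall of Ddx5, a helicase of transcription and splicing, was larger, with 10.77 and 10.51 on the pIC arrays, against 12.03, 12.06 and 11.80 on the PBS arrays (-1.33 ± 0.21, adjusted p = 0.0039, and 0.0506 without pIC replicate 2). Its close relative Ddx17 fell as well (-0.41), as did Dhx57 and Ddx3x. Of 137 splicing genes 29 rose and 6 fell, the largest fall being of the splicing repressor Ptbp2 (-0.69 ± 0.11, adjusted p = 0.00369). The other 5 were U2af1, Srsf5, Hnrnph1, Rbm5 and Prpf39, and were named for their small number. Among members in the brightest 2 level groups 36.2% of translation factors, 37.2% of helicases and 24.1% of splicing genes rose, where 19.3% of all such genes did, so the splicing share was near that of bright genes. Without pIC replicate 2 the rises numbered 3 translation factors, 1 helicase and 1 splicing gene, without pIC replicate 1 they numbered 8, 2 and 2, and without PBS replicate 1 they numbered 11, 9 and 13. For splicing genes the count was 14 without PBS replicate 2 and 15 after loess scaling.

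Genes of RNA decay changed in both directions. In that family 11 of 58 rose and 7 fell. Among its members in the brightest 2 level groups 20.8% rose and 11.3% fell. Of all genes there 19.3% rose and 9.61% fell, so both shares were near those of bright genes. Zfp36 (tristetraprolin), which directs mRNAs of immediate early and cytokine genes to decay, read 11.06 and 11.13 on the pIC arrays, against 12.10, 12.28 and 12.11 on the PBS arrays, a 2.10-fold fall (-1.07 ± 0.10, limma, adjusted p = 0.000565). Tob1, an antiproliferative adaptor of the deadenylase, read 7.39 and 7.46 on the pIC arrays, against 8.47, 8.52 and 8.44 on the PBS arrays (-1.06 ± 0.12, adjusted p = 0.0011). The exosome subunit gene Exosc9 rose by 0.76 ± 0.12 and the decapping enzyme gene Dcp2 by 0.76 ± 0.12. These 4 passed without each array. The balance depended on the scaling, with 5 rises and 11 falls after cyclic loess scaling and 16 and 6 with array medians equalised. The family count of rises was 6 without PBS replicate 1 or 2, 7 without PBS replicate 3, 4 without pIC replicate 1 and 3 without pIC replicate 2. The falls numbered 2 without either pIC array, 3 without PBS replicate 1 and 4 without PBS replicate 2.

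Insulin, PI3K and FoxO signalling contained the highest share of falls among the 47 families in the fit of all 11 arrays. With only the 5 pIC and PBS arrays fitted, 7 of 19 clock and PAR bZIP genes, 13 of 40 xenobiotic genes and 14 of 52 growth factor genes fell. In that fit 12 of the 46 insulin, PI3K and FoxO genes did. FoxO factors are kept out of the nucleus by insulin and growth factor signals, and several of their known targets are in this list. Of 46 genes 13 fell (28.3%) and 4 rose, where 5.75% of all genes fell. In the brightest 2 level groups 13 of 40 members fell (32.5%), where 9.61% of all genes there did. By that measure the share was below those of complement and coagulation (35.7%), clock (33.3%) and growth factor genes (33.3%). The lung Krueppel-like factor gene Klf2, a FoxO target that keeps lymphocytes quiescent, read 6.57 and 6.85 on the pIC arrays, against 8.39, 8.35 and 7.76 on the PBS arrays (-1.46 ± 0.21, limma, adjusted p = 0.00286). Deptor, an inhibitor of mTOR, read 7.94 and 8.05 on the pIC arrays, against 8.74, 8.97 and 8.84 on the PBS arrays (-0.86 ± 0.12, adjusted p = 0.00245). Klf2 and Deptor passed without each array. The insulin receptor substrate Irs2 fell by 0.77 (SE 0.13), the receptor gene Igf1r by 0.76 (SE 0.14) and the glucose-responsive arrestin Txnip by 0.75 (SE 0.12). Irs2 (0.0595) and Txnip (0.0531) were lost without pIC replicate 2 and Igf1r (0.0705) without pIC replicate 1. The 4 rises were Sesn2, Eif4ebp1, Pik3cb and Rheb, of which Sesn2 and Eif4ebp1 are also on the Atf4 list. The count of falls was 7 without PBS replicate 2, 6 without pIC replicate 1 and 3 without pIC replicate 2.

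Growth factors and their receptors fell more often than they rose. Of 52 genes 13 fell (25%) and 3 rose, the rises being Axl, Pdgfrb and Ltk. Pdgfc, a platelet-derived growth factor, read 6.84 and 6.99 on the pIC arrays, against 7.81, 8.06 and 7.90 on the PBS arrays (-1.01 ± 0.13, limma, adjusted p = 0.00219), and passed without each array. Gas6, a ligand of Axl and Mertk, fell by 1.15 (SE 0.21), and Igf1 by 0.93 (SE 0.18). Gas6 was lost without pIC replicate 2 (adjusted p = 0.0825), and Igf1 without pIC replicate 1 (0.0593) or replicate 2 (0.0666). The endothelial guidance receptor gene Robo4, which HSCs also use, read 8.18 and 7.97 on the pIC arrays, against 9.56, 9.73 and 9.43 on the PBS arrays, a 2.83-fold fall (-1.50 ± 0.20, adjusted p = 0.00219) that passed without each array. In its family of semaphorin, plexin and ephrin genes 11 of 68 fell and 4 rose (Plxdc1, Robo3, Sema6b and Sema4d). Of 57 Wnt, Notch and Hedgehog genes 8 fell and none rose, with the Wnt effector Tcf7l2 at -0.82 ± 0.13 (limma, adjusted p = 0.00378). In the brightest 2 level groups 4 of 26 of these Wnt, Notch and Hedgehog genes fell (15.4%), against 9.61% of all genes there. The same groups held falls of 5 of 15 growth factor genes (33.3%) and 5 of 16 semaphorin, plexin and ephrin genes (31.2%). The counts of falls in the 3 families were 5, 3 and 2 without pIC replicate 1, and 3, 1 and 2 without pIC replicate 2. For the guidance and Wnt families they were 5 and 5 without PBS replicate 1, and 7 and 5 without PBS replicate 2.

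Genes of cAMP signalling and of lipid messengers also had more falls than rises. Of 55 cAMP pathway genes 10 fell (18.2%) and 5 rose. In the brightest 2 level groups 6 of 31 members fell (19.4%), against 9.61% of all genes there. Pde2a, a phosphodiesterase that degrades cAMP and cGMP, read 7.62 and 7.44 on the pIC arrays, against 8.72, 9.19 and 8.83 on the PBS arrays (-1.38 ± 0.16, limma, adjusted p = 0.00117). The kinase anchor gene Akap7 fell by 1.06 (SE 0.17). Rgs2, which shortens G-protein signals, read 9.28 and 9.27 on the pIC arrays, against 10.30, 10.47 and 10.41 on the PBS arrays (-1.12 ± 0.12, adjusted p = 0.000832). Of 52 sphingolipid and phosphoinositide enzymes 10 fell and 5 rose, with the phospholipase gene Plcb2 at -0.88 ± 0.13 and the ceramide kinase gene Cerk at -0.87 ± 0.11. These 5 genes kept their calls without each array. The 5 rises of the cAMP family were Pde10a, Sik3, Adcy6, Pkib and Pde6d, and those of the lipid enzymes were Cers6, Sphk1, Ugcg, Sgpp1 and Degs1. Each of the 2 families had 5 falls without either pIC array.

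Ras and Rap genes and their regulators had 9 falls (16.7%) and 1 rise, of Sos1, among 54 genes. In the brightest 2 level groups 4 of 27 members fell (14.8%), where 9.61% of all genes there did. Rassf2, a Ras-binding adaptor of the Hippo kinases, read 8.21 and 8.16 on the pIC arrays, against 9.27, 9.23 and 8.99 on the PBS arrays (-0.98 ± 0.16, limma, adjusted p = 0.00414), and passed without each array. The falls of this family numbered 2 without pIC replicate 1 and 1 without pIC replicate 2. They numbered 5 with array medians equalised, and when PBS replicate 1, 2 or 3 was left out they numbered 5, 4 and 3 in that order.

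Of 40 glutathione transferase and xenobiotic genes, many of them detoxifying enzymes, 10 fell (25%) and 1, Gstm3, rose, where 5.75% of all genes fell. Of 22 members in the brightest 2 level groups 7 fell (31.8%), against 9.61% of all genes there. Sult1a1, a phenol sulphotransferase, read 6.88 and 6.71 on the pIC arrays, against 8.02, 8.35 and 8.24 on the PBS arrays, a 2.65-fold fall (-1.41 ± 0.14, limma, adjusted p = 0.000622). The epoxide hydrolase gene Ephx1 read 6.83 and 7.01 on the pIC arrays, against 7.90, 8.65 and 8.40 on the PBS arrays (-1.39 ± 0.19, adjusted p = 0.00245). Both kept their calls without each array. The transferase genes Gsta4 (-1.15 ± 0.24) and Mgst1 (-0.96 ± 0.19) were lost without pIC replicate 1 (adjusted p 0.0681 and 0.081), and Gsta4 without pIC replicate 2 (0.0856). The family count of falls was 5 without PBS replicate 1 or 2, 2 without pIC replicate 1 and 3 without pIC replicate 2. In the family of eicosanoid and lipid mediator genes calls were split, with 5 rises (Ptges2, Ptges3, Pla2g4a, Pla2g12a and Lta4h) and 5 falls (Ptgs2, Ephx1, Cyp4f13, Tbxas1 and Hpgd) among 33. Of its 13 members in the brightest 2 level groups 23.1% rose and 23.1% fell. Of all genes there 19.3% rose and 9.61% fell, so the share of rises was near that of bright genes. Ptgs2, the inducible cyclooxygenase of prostaglandin synthesis, read 6.54 and 6.54 on the pIC arrays, against 8.04, 7.95 and 8.02 on the PBS arrays (-1.46 ± 0.18, adjusted p = 0.00167), and passed without each array. Without either pIC array this family held 2 rises and 3 falls, without PBS replicate 1 or 2 it held 3 rises, and without PBS replicate 3 it held 2.

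Imprinted genes, several of which are known to be high in quiescent HSCs, had 8 falls among 41 (19.5%) and no rise, where 5.75% of all genes fell. Of 15 members in the brightest 2 level groups 4 fell (26.7%), against 9.61% of all genes there. Sgce, a paternally expressed sarcoglycan, read 8.19 and 8.06 on the pIC arrays, against 8.89, 9.0 and 8.76 on the PBS arrays (-0.76 ± 0.11, limma, adjusted p = 0.0033), and passed without each array. The zinc-finger gene Peg3 fell by 0.54 (SE 0.10) and was lost without pIC replicate 2 (adjusted p = 0.0898). The noncoding imprinted transcripts Airn (-0.93 ± 0.16) and Kcnq1ot1 (-0.89 ± 0.19) were lost without pIC replicate 1 (0.0515 and 0.0773), and Kcnq1ot1 without replicate 2 (0.0776). The count was 4 without pIC replicate 1 and 2 without replicate 2. Among 19 clock and PAR bZIP genes 5 fell (26.3%), namely Hlf, Rora, Per1, Npas2 and Arntl, and Cry1, a repressor of the clock, rose. Of its 12 members in the brightest 2 level groups 4 fell (33.3%). Npas2, a partner of Arntl, read 6.34 and 6.29 on the pIC arrays, against 6.95, 7.02 and 6.88 on the PBS arrays (-0.64 ± 0.10, adjusted p = 0.0033), and passed without each array. Cry1 rose by 0.75 ± 0.16 and was lost without pIC replicate 1 (0.058) or replicate 2 (0.106). Of the clock falls 1 was left without pIC replicate 2, and 3 without PBS replicate 2.

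Noncoding transcripts fell more often than they rose. Among 36 named long noncoding RNA genes 8 fell (22.2%) and 3 rose, namely Snhg15, Zfas1 and Snhg10 among the rises. Malat1, an abundant nuclear RNA, read 11.77 and 11.64 on the pIC arrays, against 12.48, 12.52 and 12.38 on the PBS arrays (-0.75 ± 0.10, limma, adjusted p = 0.00241). Lncpint read 7.0 and 6.88 on the pIC arrays, against 8.37, 8.30 and 8.14 on the PBS arrays, a 2.51-fold fall (-1.33 ± 0.16, adjusted p = 0.00167). Both passed without each array. Of 84 small nucleolar and nuclear RNA genes 14 fell and 2 rose (Snord52 and Snora73b), with Snora31 at -1.41 ± 0.19 and Snora30 at -0.83 ± 0.13. In the brightest 2 level groups 3 of 65 microRNA genes rose (4.62%) and 17 fell (26.2%). Of all genes there 19.3% rose and 9.61% fell. Of all 483 microRNA genes 5 rose (1.04%) and 34 fell (7.04%), where 5.75% of all genes fell. The largest were of Mir28c (-2.29 ± 0.43) and Mir340 (-2.01 ± 0.38), which were lost without pIC replicate 2 (adjusted p 0.0744 and 0.0793) and were named for their size. The list was drawn from symbols and holds 5 host genes of microRNAs, of which 1, the long noncoding Mir99ahg, fell (-1.87 ± 0.29). Such probe sets read transcripts of the locus, and the label reaction used here does not isolate mature microRNAs. The counts of falls in the 3 families were 4, 4 and 18 without pIC replicate 1 and 3, 2 and 7 without pIC replicate 2, 5, 9 and 22 without PBS replicate 2, and 5 and 21 for long noncoding RNAs and microRNA genes without PBS replicate 1. The rises of microRNA genes were Mir1932, Mir709, Mir1946a, Mir193b and Mir193a.

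Several large families stayed near or below the share of all genes, a comparison that does not allow for level. Among members in the brightest 2 level groups 12.4% of solute carriers, 19.5% of G-protein-coupled receptors, 16.2% of ion channels and 6.91% of Zfp genes fell. Their rises were 14.4%, 19.5%, 16.2% and 4.79% in the same order. Of all genes there 9.61% fell and 19.3% rose. Among 288 solute carriers 18 rose (6.25%) and 15 fell (5.21%), among 200 G-protein-coupled receptors 10 rose and 11 fell, and among 187 ion channels 8 rose and 11 fell. The 362 Zfp zinc-finger genes held 11 rises and 19 falls, and the 1426 olfactory, vomeronasal and taste receptors 4 rises (0.281%) and 22 falls (1.54%). The largest falls of the receptor family were neighbours, Olfr65, Olfr631, Olfr632 and Olfr633, at -2.05, -1.88, -1.69 and -1.57, genes of related sequence whose probe sets may share signal. Olfr633 passed without each array, and Olfr65, Olfr631 and Olfr632 were lost without pIC replicate 2 (adjusted p 0.0825, 0.0827 and 0.056), Olfr65 and Olfr632 also without pIC replicate 1 (0.0859 and 0.051). Zfp521, a zinc-finger factor of HSCs within the Zfp family, read 7.99 and 8.18 on the pIC arrays, against 9.20, 9.45 and 8.98 on the PBS arrays (-1.13 ± 0.18, limma, adjusted p = 0.00372). Among the G-protein-coupled receptors Adgrg7 rose by 0.85 ± 0.12 and Ptger3, a prostaglandin E2 receptor, by 0.73 ± 0.12. The neonatal Fc receptor gene Fcgrt, in a family of lectins and immune receptors with 7 rises and 7 falls among 102 genes, read 7.68 and 7.29 on the pIC arrays, against 9.0, 9.17 and 9.0 on the PBS arrays, a 2.97-fold fall (-1.57 ± 0.13, adjusted p = 0.000491). The activating Fc receptor gene Fcgr4 rose by 1.11 ± 0.18. When 1 pIC or PBS array at a time was left out, the rises and falls numbered 1 to 12 and 5 to 14 for solute carriers, 3 to 9 and 1 to 10 for G-protein-coupled receptors, 0 to 6 and 0 to 6 for ion channels, 1 to 10 and 6 to 17 for Zfp genes, 2 to 6 and 7 to 28 for chemosensory receptors, and 1 to 6 and 1 to 6 for the lectin family. The fewest were found without a pIC array, except for the chemosensory rises (without PBS replicate 1), and in each of these families leaving out PBS replicate 1 or PBS replicate 2 also moved a count by more than 1.5 times. The Zfp falls numbered 33 without ATRA+pIC replicate 2. Families not described here are shown in the plot of shares by family.

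**Figure D3:**
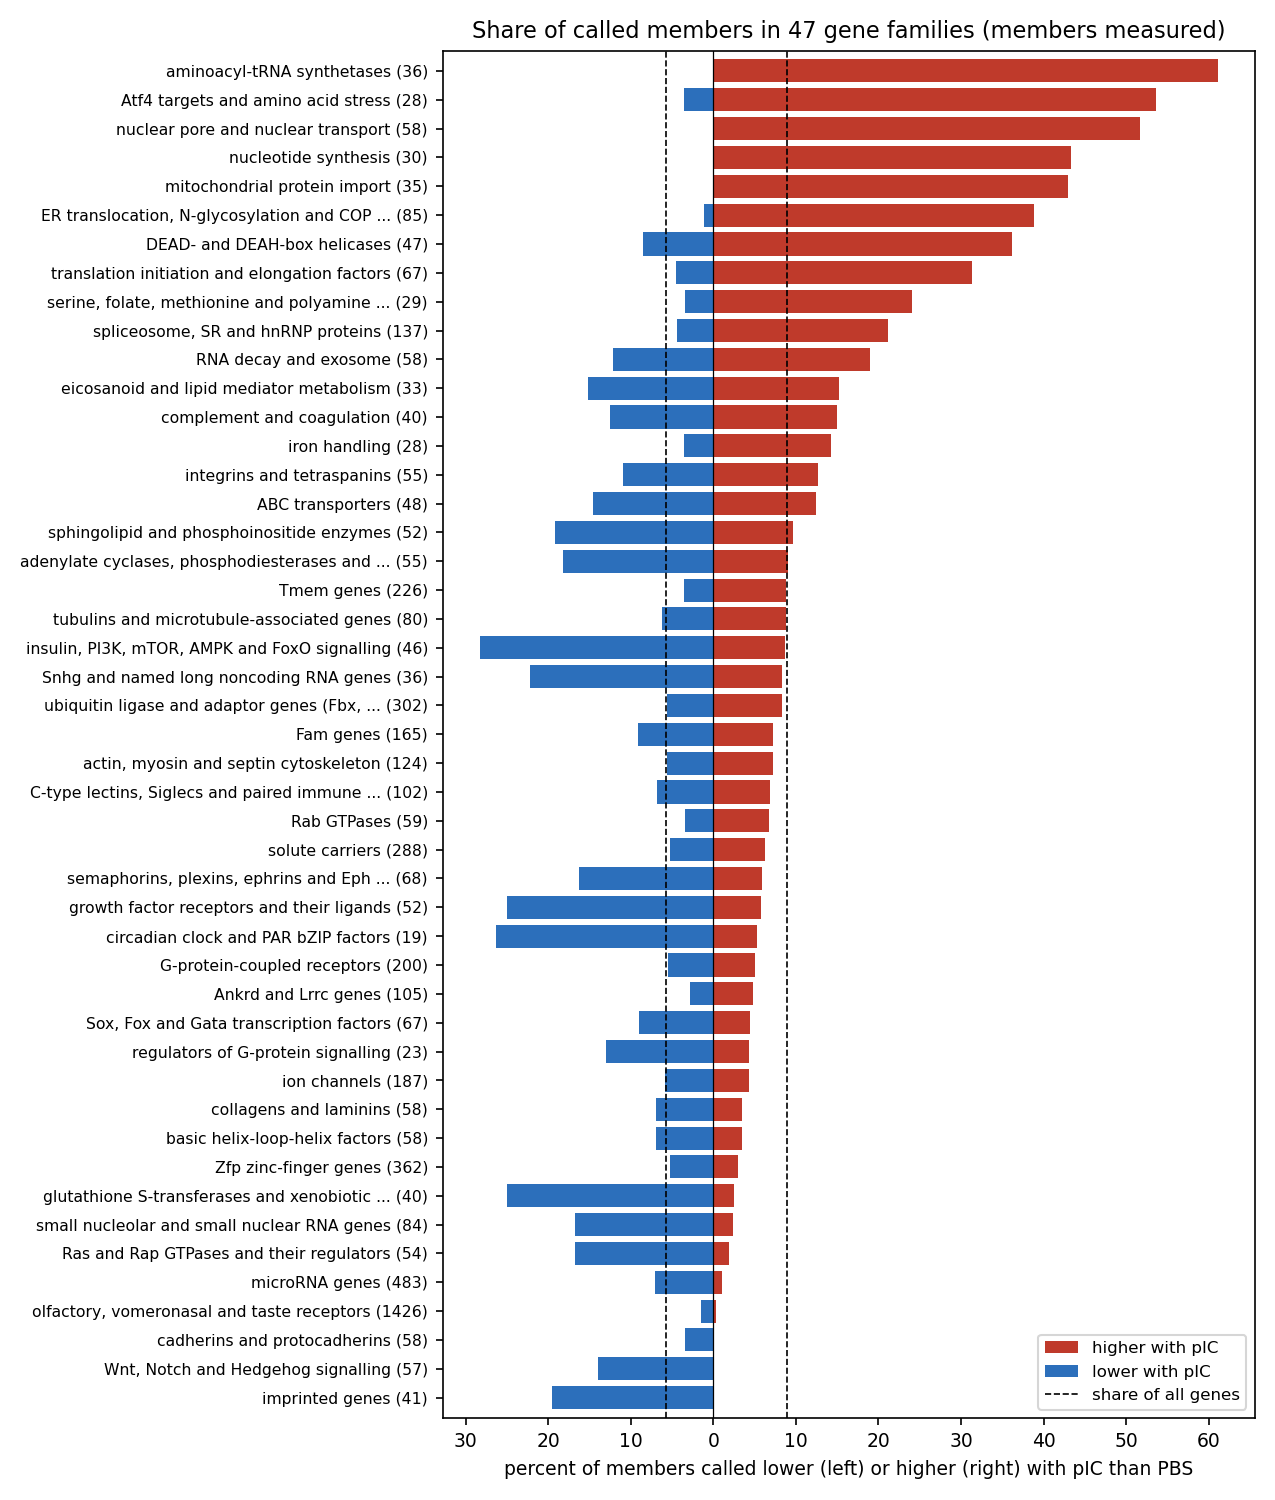
Bars give the percent of measured members of each of 47 gene families that rose (red, right) or fell (blue, left) with pIC relative to PBS, and dashed lines mark the shares of all genes, 8.94% and 5.75%. Synthetases, Atf4 targets and nuclear transport genes lead the rises, and insulin, clock, growth factor and xenobiotic genes the falls.

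Some genes called in the same direction lay side by side. Of 21991 genes placed on chromosomes in the RefSeq gene table (GRCm38.p6), 51 runs of at least 3 neighbours rose (175 genes) and 12 runs fell (38 genes). With 8.94% of all genes rising and 5.75% falling, some such runs arise without any link between neighbours. Their expected number was not computed, so nothing on shared control of neighbours is read from these counts. No set-aside gene lay in 30 of the rising runs or in any falling run. One rising run held Csf2rb2, Csf2rb and Ncf4, a subunit of the phagocyte oxidase, which rose by 0.52. Another held Calr (0.62), Farsa (0.53) and Syce2 (0.41), and another Lsm2 (0.62), D17H6S56E-5 (0.87) and Vars (0.72). The falling runs included Irs2 with the collagen genes Col4a1 (-0.42) and Col4a2 (-0.48), Malat1 with Neat1 (-0.46) and Ltbp3 (-0.83), and Fzd3 (-0.88) with Fbxo16 (-0.82) and Zfp395 (-0.73). The count with at least 4 neighbours was 15 rising and 2 falling. Of the genes named in these runs D17H6S56E-5, Vars and Malat1 passed without each array. The others, Csf2rb2 and Csf2rb included, were each lost without pIC replicate 1 or pIC replicate 2 or both, and the highest adjusted p of any leave-one-out fit was 0.286 (limma), for Col4a2 without pIC replicate 2. Overlapping and closely related genes in a run may share signal.

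Markers of the sorted cells and of other blood cells were read as lists. The HSC list of 14 genes had 7 falls and 1 rise (Cd48, 2.14 ± 0.32). Not all of its members are high in HSCs, and it includes Cd48, which HSCs are known to lack. The mean level of the list was 9.049 and 8.971 on the pIC arrays, against 9.487, 9.502 and 9.490 on the PBS arrays. Besides Hlf and the genes Fgd5, Mecom, Procr and Kit, the falls were Meis1 (-0.66 ± 0.14, limma, adjusted p = 0.0116) and Ctnnal1 (-0.56 ± 0.10, adjusted p = 0.00728), and both of these were lost without either pIC array (0.0531 to 0.0952). Of the HSC falls 3 passed without pIC replicate 1 and 2 without replicate 2. Of 11 erythroid markers 6 rose and none fell, and the list mean was 9.517 and 9.609 on the pIC arrays, against 8.490, 8.403 and 8.653 on the PBS arrays. Gata1, the erythroid and megakaryocytic factor, read 8.71 and 8.59 on the pIC arrays, against 7.71, 7.44 and 7.69 on the PBS arrays (1.03 ± 0.17, adjusted p = 0.00467). The transferrin receptor gene Tfrc rose by 0.89 ± 0.14, and like Gata1 it passed without each array. Rhag, a Rh-complex glycoprotein of red cells, differed by 2.25 ± 0.57 and Kel, the Kell antigen, by 1.69 ± 0.44. Both were lost without PBS replicate 1 (0.0709 and 0.0744), PBS replicate 2 (0.0561 and 0.0881), pIC replicate 1 (0.111 and 0.0943) and pIC replicate 2 (0.136 and 0.177), and Rhag without PBS replicate 3 (0.0524). Klf1, the erythroid Krueppel-like factor, differed by 1.70 ± 0.33 and was lost without pIC replicate 2 (0.0783). Samd14, a regulator of erythroid Kit signalling in mice, rose by 1.75 ± 0.30 and was lost without pIC replicate 2 (0.056). The erythroid rises numbered 3 when PBS replicate 1, PBS replicate 2 or pIC replicate 1 was left out, 2 without pIC replicate 2, and leaving out ATRA+pIC replicate 2 gave 9.

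The platelet genes were split. Among the 13 markers of megakaryocytes and platelets there were 6 rises and 2 falls, with list means of 8.653 and 8.636 on the pIC arrays, against 8.464, 8.452 and 8.518 on the PBS arrays, while the median difference of the list was -0.09. Selp, the platelet adhesion molecule P-selectin, read 10.33 and 10.43 on the pIC arrays, against 9.56, 9.37 and 9.62 on the PBS arrays (0.86 ± 0.13, limma, adjusted p = 0.00332), and Gp5 rose by 0.79 ± 0.12. Pf4, platelet factor 4, read 10.94 and 11.15 on the pIC arrays, against 11.61, 11.75 and 11.87 on the PBS arrays (-0.70 ± 0.14, adjusted p = 0.00896). It was lost without pIC replicate 1 (0.0813), and Vwf was the other fall. The rises numbered 3 without pIC replicate 1 and 2 without pIC replicate 2. Among 17 monocyte, macrophage and dendritic cell markers 3 rose (Mpeg1, Ctss and Fcgr1), and their list means were 6.809 and 6.783 on the pIC arrays, against 6.397, 6.349 and 6.370 on the PBS arrays. The median difference of that list was -0.01, and 4 of its members lay lower on both pIC arrays than on every PBS array. Of the 13 B and plasma cell markers and the 17 neutrophil markers none passed, and their list means overlapped between pIC and PBS arrays. Of 12 endothelial markers 3 fell, namely Robo4, Cldn5 and Tie1, of which 1 passed without pIC replicate 2, and the list means were 8.135 and 8.029 on the pIC arrays, against 8.374, 8.388 and 8.337 on the PBS arrays. Hdc and Siglecf rose among 14 mast cell, basophil and eosinophil markers and Pdgfrb among 13 stromal markers, and these 3 were each lost without either pIC array (adjusted p 0.0577 to 0.17) or PBS replicate 2 (0.0515 to 0.0819), Pdgfrb also without PBS replicate 1 (0.0729) or 3 (0.0506), and Hdc with only the 5 pIC and PBS arrays fitted (0.0574). The part of such cells in the results above was not tested.

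**Figure D4:**
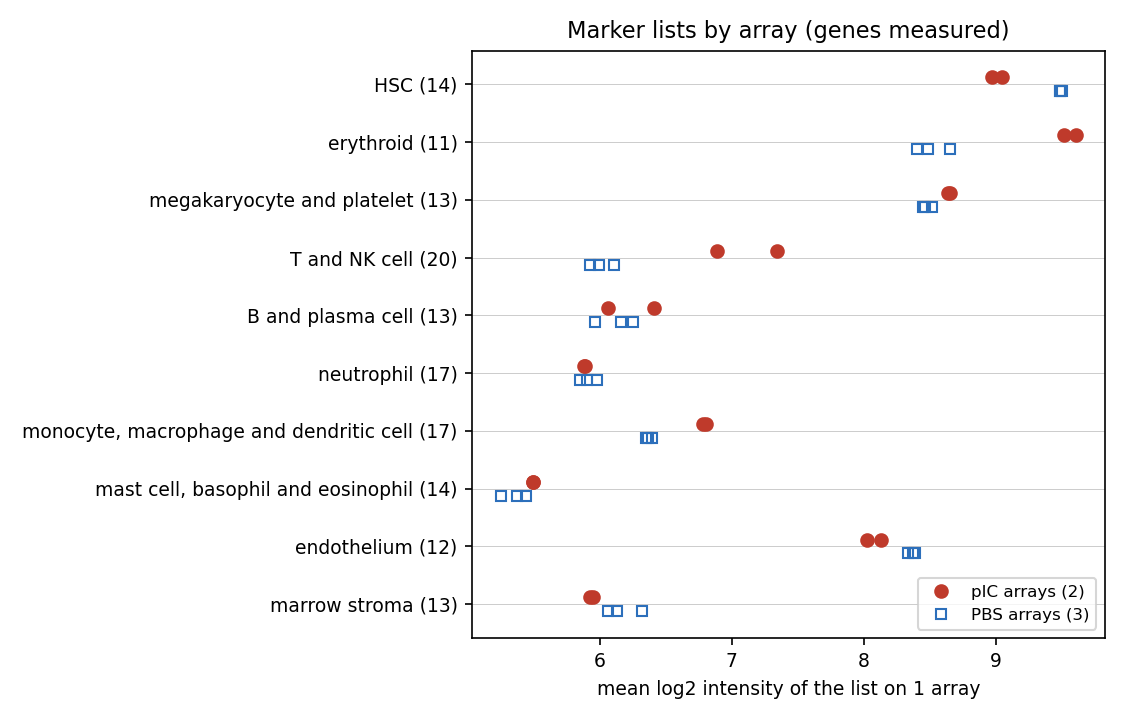
Points give the mean log2 intensity of each marker list on the 2 pIC arrays (filled circles) and the 3 PBS arrays (open squares), with the number of genes measured in brackets. Erythroid, platelet, T and NK, monocyte and mast cell lists lie higher on both pIC arrays than on every PBS array. The HSC, endothelium and stroma lists lie lower, and the neutrophil and B-cell lists overlap. Median differences of the platelet, monocyte and mast cell lists were -0.09, -0.01 and 0.02. Those of endothelium and stroma were -0.01 and -0.08, so the means of these lists need not reflect most members.

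The 2 pIC arrays differed from each other by more than 1 log2 unit for 57 genes, against 56 to 84 genes for pairs of PBS arrays. The widest gap was at the interferon beta gene Ifnb1, which read 5.23 on pIC replicate 1 and 8.18 on pIC replicate 2, against 4.8, 4.69 and 5.0 on the PBS arrays. The heat-shock gene Hspa1a read 6.02 and 8.07 on the pIC arrays, against 5.59, 5.05 and 5.45 on the PBS arrays. Neither gene passed (limma, adjusted p = 0.0625 and 0.0768), and for both only pIC replicate 2 stood far above the PBS arrays. The immunoglobulin gene Ighm read 7.14 and 9.10 on the pIC arrays, against 7.67, 6.46 and 8.14 on the PBS arrays (adjusted p = 0.638), and the groups overlapped. The interleukin 2 receptor gene Il2rb read 7.69 and 9.17, against 6.22, 5.91 and 6.39 (adjusted p = 0.0756), and the T-cell receptor segment Trav9d-3 read 8.28 and 9.76, against 6.0, 6.23 and 6.78 (adjusted p = 0.0934), with pIC values first in both. Without pIC replicate 1, Ifnb1 passed at an adjusted p of 0.000777.

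The same contrast in ATRA-treated mice, ATRA+pIC against ATRA, was made between 6 other arrays, which share only the estimate of spread with the comparison above. In it 1599 genes passed (7.21%), 3.5% higher and 3.71% lower, or 3214 without ATRA+pIC replicate 2, and 1176 genes passed in both with the same sign, which is 36.1% of the calls without ATRA and 73.5% of those with ATRA. Outside the set-aside lists 432 rises and 543 falls passed in both. Of the 1984 rises 1904 had a positive difference in ATRA-treated mice as well, and of the 1276 falls 1221 had a negative one. Ctsf had a difference of -0.97 there (limma, adjusted p = 0.00869), against -1.85 without ATRA. For Zfp36 the values were -0.86 (adjusted p = 0.000921) and -1.07, and for C4b they were 1.55 (adjusted p = 0.00192) and 1.78. Values with ATRA that did not pass included those of Vldlr, 0.01 (adjusted p = 0.987), Tfrc, 0.15 (adjusted p = 0.58) and Yars, 0.20 (adjusted p = 0.284). For Lncpint the difference with ATRA was -0.41 (adjusted p = 0.121) and for Malat1 -0.23 (adjusted p = 0.172). The interaction of none of these genes passed.

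The test of whether the pIC effect differed between the 2 backgrounds called 0 genes (limma interaction, lowest adjusted p = 0.395), while 1390 genes had an unadjusted p below 0.05, or 6.27% of those tested. Without pIC replicate 1 it called 1 gene, Ifnb1 (adjusted p = 0.00947). The gene with opposite calls in the 2 backgrounds was Mid1, a ubiquitin ligase of microtubules, with -1.12 ± 0.22 for pIC against PBS and 0.86 ± 0.19 for ATRA+pIC against ATRA. Its interaction was 1.98 ± 0.29 and did not pass (adjusted p = 0.395). Its pIC call was lost without pIC replicate 2 (0.0915) and with the mean of its probe sets (0.269). Pf4 fell by 0.70 without ATRA and had 0.38 ± 0.12 with it, an interaction of 1.08 ± 0.18 that did not pass (adjusted p = 0.512). The size of the difference was larger without ATRA for 2745 of the 2997 genes called outside the lists (2403 without ATRA+pIC replicate 2), a count that the choice of genes on the first contrast favours. Without ATRA+pIC replicate 2, 2367 genes passed in both backgrounds.

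**Figure D5:**
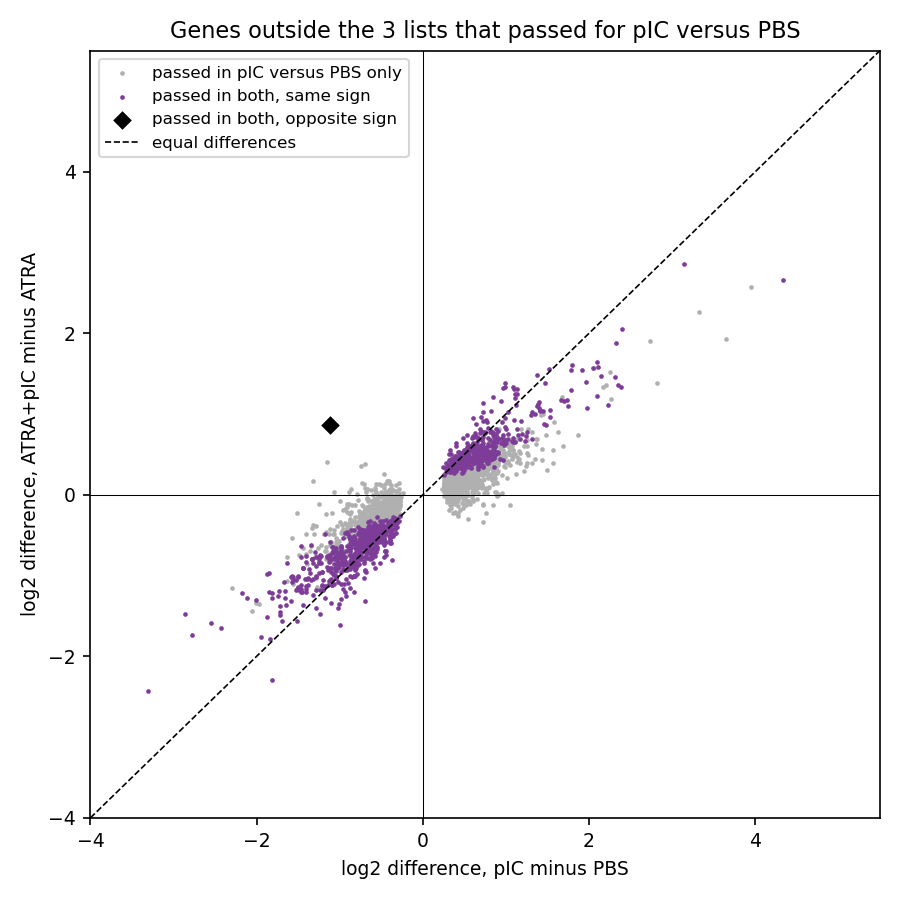
Each point is 1 of 2997 genes outside the set-aside lists that passed for pIC against PBS, with that log2 difference on the horizontal axis and the log2 difference of ATRA+pIC minus ATRA on the vertical axis. Purple points passed in both with the same sign (975 genes), the black diamond is Mid1, and points below the dashed line on the right, or above it on the left, had the smaller difference with ATRA.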

How the data were processed

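Per the labels' protocols, RNA of flow-sorted HSCs came from PicoPure columns, went through a DNase step and was biotin-labelled by Affymetrix in vitro transcription. The deposited table holds log2 values of 41345 probe sets on 11 arrays, and per the submitters' processing notes RMA, oligo 1.36.1 and limma 3.28.20 were used, with no role or order given. Array medians ran from 6.186 to 6.282 and no value was missing. The number of arrays limits the precision.

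Probe sets were named through the platform annotation: 23521 had 1 symbol, 1814 several and 16010 were not listed. Of the probe sets with 1 symbol, 23328 matched the RefSeq gene table. For the 1082 genes with more than 1 probe set, the one with the highest mean over the 11 arrays was used, which left 22180 genes. limma 3.58.1 (R 4.3.3) was fitted to the means of the 4 groups over all 11 arrays, with empirical Bayes and Benjamini-Hochberg adjustment over all genes at a threshold of 0.05. Lists and figures were made with Python 3.11.15. The fit was tested on simulated data.

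The genes named are the 25 largest rises and the 25 largest falls outside the set-aside lists whose arrays do not overlap (predicted genes and small RNA genes left out), up to 4 members per list by adjusted p, the 10 genes with the largest gap between the pIC arrays, genes of neighbour runs, genes with extreme interaction estimates, and HSC markers, of which the text leaves some out. One further family, beside the 47 plotted, is not reported here. Genes named beside these complete a small count or were chosen after their values were seen. The comparison, lists and tests were chosen with earlier results of these data known. Alternatives were array weights, leaving out the dimmest 40% of genes, a replicate block, cyclic loess scaling, equal array medians, averaging all probe sets of a gene, testing each probe set separately, only the 5 arrays compared, a trended robust prior, and leaving out each array.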

Additional observations from a re-analysis of the deposited data

Results flagged for a closer look

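Probe sets that the report does not use also carried differences between pIC and PBS arrays. With all 41345 probe sets tested together by limma, 940 of the 16010 probe sets that the annotation does not list with a gene passed (5.87%), 292 higher and 648 lower in pIC HSCs than in PBS HSCs. Of the 1814 probe sets with several gene symbols 160 passed (8.82%), 88 higher and 72 lower. Among the 23521 probe sets with 1 symbol 1452 were higher and 879 lower (9.91%). What transcripts the unlisted probe sets read was not analysed here.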

How the results depend on the processing

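Under the 9 other settings the number of rises ran from 1449 (cyclic loess scaling) to 2494 (array medians equalised), and the number of falls from 988 (array medians equalised) to 1743 (array weights), all within 1.5 times the reported 1984 and 1276. Genes called with the same sign in both backgrounds numbered 2708 with array weights, against 1176, and the cause was not tested. Leaving out 1 array at a time gave 392 to 2385 rises, 272 to 1667 falls, 384 to 2367 genes called in both backgrounds and 0 to 1 genes whose pIC effect differed by background, and fits without 1 pIC array assume that the other varies like the rest. Of the values of the 243 genes named, 2102 under other settings and 2251 with an array left out kept their direction and side of the threshold, 64 and 413 lost their call, and 10 and 8 gained one. Ighm reversed, at -0.28 without pIC replicate 2 (limma, adjusted p = 0.93), with a range of -0.28 to 1.68 over arrays left out. With the replicate number as a block there were 1725 rises, 1110 falls, 983 genes called in both backgrounds and 0 interactions. Deviations of same-numbered PBS and pIC arrays from their group means had r = -0.0102 and -0.0266 across genes, which are not independent replicates. For pIC and ATRA+pIC arrays r was -0.0719 and -0.109, and for PBS and ATRA+pIC arrays -0.0275, 0.0976 and 0.0686. The 2 pIC arrays deviate from their mean by mirror values, so these r cannot tell whether the numbers pair the samples. Signal over background limits the dimmest genes, where few were called.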
